A study of Mus musculus with 8 samples.

Results

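The Wnt genes described here are the ligands Wnt2, Wnt4, Wnt5a, Wnt7b and Wnt11, the secreted inhibitors Sfrp1 and Frzb, and the intracellular components Ctnnb1 (beta-catenin), Lef1 and Axin1. They were taken from the oligonucleotide array by name: every probe set whose only annotated gene symbol was one of these 10 was kept. Of these genes, 9 had such a probe set, out of 8251 genes with one on the array. Lef1 had 2, which made 10 probe sets. Wnt2 was not analysed here.

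The mice were C57/Bl6 neonates of day 6, an age when secondary septa grow into the air spaces. Laser capture, which lifts selected spots out of a tissue section under the microscope, gave 10000 alveolar septal tips from many animals. They were compared with RNA of pooled whole lung of the same age and strain. The experiment was done 2 times on different litters, and each amplified RNA was put on 2 Affymetrix arrays, so that 8 arrays stood for 4 RNA samples: 2 of tips and 2 of lung. No genotype or treatment separated the groups, and whole lung contains septal tips. Values are MAS5 intensities, a linear signal per probe set, and replicates are the RNA samples (n = 2 per group).

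Wnt proteins are secreted ligands that bind Frizzled receptors and their co-receptors. In the absence of ligand, a complex built on the scaffold Axin, with casein kinase and a ubiquitin ligase, leads to destruction of beta-catenin. When a ligand binds, beta-catenin accumulates and acts with LEF and TCF factors at target genes, while a separate pool of it links cadherins to the cytoskeleton at cell junctions. In the developing lung, Wnt2 and Wnt5a come mainly from mesenchyme and Wnt7b from the airway epithelium, and secreted Frizzled-related proteins such as Sfrp1 and Frzb bind ligands outside the cell.

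Windows around the transcription start are given first for Wnt11, Ctnnb1 and Lef1, 3 of the 4 measurable members, the other being Axin1. They are shown because LEF and TCF are the main factors through which beta-catenin reaches its target genes. They come from RefSeq on GRCm38.p6 and run from 250 bases before to 50 bases after a start of the gene, on the plus strand for these 3 genes. Where RefSeq gives several starts, the most upstream one is printed. Both strands were searched for the LEF/TCF core in 4 spellings. The first was CTTTGAA. Another was CTTTGAT, which ends in a different letter. The third spelling searched was CTTTGTA. The last of them was CTTTGTT, and capitals mark any match.
Wnt11, chr7:98834862-98835161: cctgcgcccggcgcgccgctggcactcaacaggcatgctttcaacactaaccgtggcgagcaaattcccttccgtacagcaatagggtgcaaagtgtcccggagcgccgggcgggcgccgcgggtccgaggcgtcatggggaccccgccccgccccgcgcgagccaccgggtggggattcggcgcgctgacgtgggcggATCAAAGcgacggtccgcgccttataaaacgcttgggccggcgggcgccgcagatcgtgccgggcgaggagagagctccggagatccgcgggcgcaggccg
Ctnnb1, chr9:120933150-120933449: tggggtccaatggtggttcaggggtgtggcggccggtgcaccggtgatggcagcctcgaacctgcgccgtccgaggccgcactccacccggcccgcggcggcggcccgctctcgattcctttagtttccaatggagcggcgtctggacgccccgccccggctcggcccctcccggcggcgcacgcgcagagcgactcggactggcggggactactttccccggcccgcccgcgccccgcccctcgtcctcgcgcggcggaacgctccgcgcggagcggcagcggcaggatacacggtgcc
Lef1, chr3:131110047-131110346: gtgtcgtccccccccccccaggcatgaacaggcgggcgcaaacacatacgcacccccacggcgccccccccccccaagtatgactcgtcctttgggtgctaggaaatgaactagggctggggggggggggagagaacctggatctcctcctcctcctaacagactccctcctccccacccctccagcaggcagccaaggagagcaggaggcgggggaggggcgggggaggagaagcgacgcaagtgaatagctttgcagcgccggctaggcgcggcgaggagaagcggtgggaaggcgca
The Wnt11 window held 1 match, to CTTTGAT on the minus strand, beginning at base 200 of the window. The Ctnnb1 and Lef1 windows held 0. Of the windows not printed, the other 1 of Wnt11 and the other 1 of Ctnnb1 held 0 matches, and 1 of the other 3 of Lef1 held a match. Of all 32851 windows of this length, 16.9% held at least 1 match. The 3 windows were rich in G and C, at 71.3% for Wnt11, 75.3% for Ctnnb1 and 67.3% for Lef1, against a median of 52.7% over all windows. These are descriptions of letters in a fixed window and say nothing on binding.

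Beta-catenin was the member that differed between the tissues. The Ctnnb1 signal was 5.68-fold lower in septal tips, and no other member passed the test. Wnt11, a ligand best known for signalling without beta-catenin, was higher on each tip array than on each lung array without passing the test. Lef1, at its brighter probe set, and Axin1 lay above background on all arrays and did not pass, and Lef1 varied between arrays of one RNA. The other ligands and both inhibitors lay under the background of the arrays, apart from single arrays for Wnt7b and Sfrp1.

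Of the 10 probe sets, 4 lay above background on all 8 arrays, those of Wnt11, Ctnnb1 and Axin1 and the first of Lef1, and the same 4 were bright enough to be tested. Background, set for each array at the 95th percentile of its control probe sets for bacterial and yeast RNA, ran from 487 to 1244 on tip arrays and from 314 to 568 on lung arrays. Another 4 probe sets lay under it on all arrays, and 2 rose above it on 1 array only. Over all 12422 probe sets, 26.5% lay above background on all arrays and 17.1% under it on all. Of the 4 tested probe sets, 0 were called higher and 1 lower in tips at an adjusted p under 0.05 (limma, Benjamini-Hochberg over all 7453 probe sets tested), and 2 had an unadjusted p under 0.05. Over all probe sets tested, 14.5% were called higher and 13.7% lower, which is 1084 against 1022. That split depended on the scaling: it was 614 against 1026 after quantile normalization, 271 against 1512 after median centring and 806 against 1156 after cyclic loess. The median log2 difference of tips minus lung over all of them was 0.35, not 0, and members are set against that value as well.

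**Figure D1:**
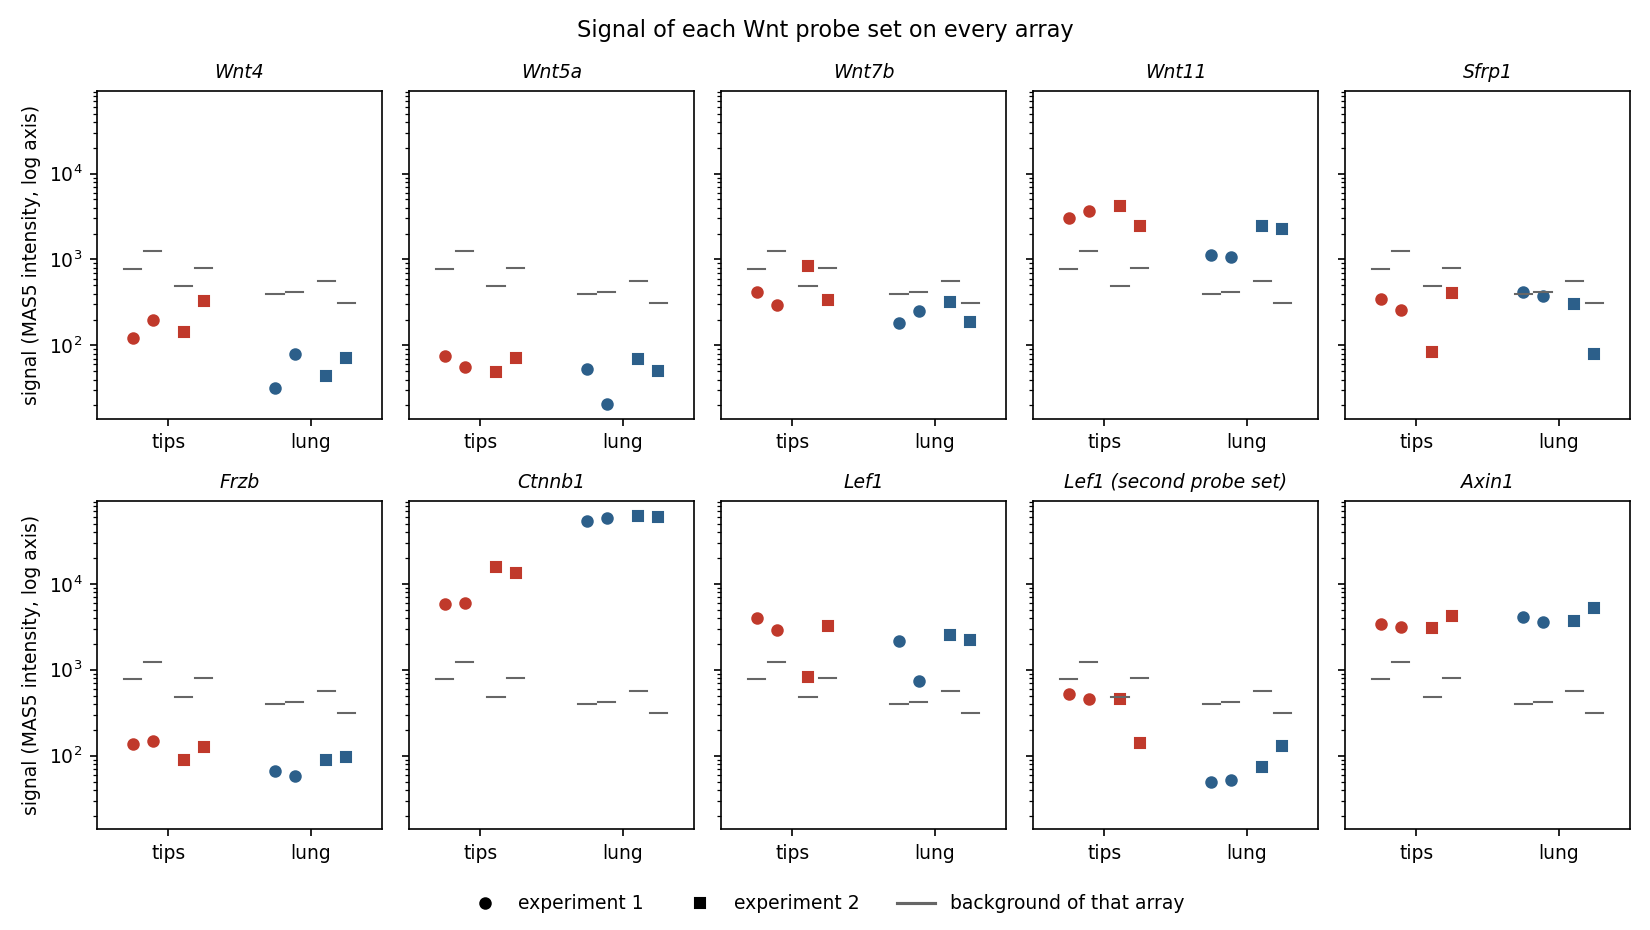
Signal of each member probe set on the 8 arrays (MAS5 intensity, log axis), tips on the left and lung on the right of each panel, with circles for experiment 1, squares for experiment 2 and a grey bar at that array's background. Ctnnb1 lies between 5824 and 15841 on tip arrays and between 53642 and 62119 on lung arrays, while Wnt4, Wnt5a, Frzb and the second Lef1 probe set stay under the bars.

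Among the ligands, Wnt11 was the measurable member. In tips its signal was 3031 and 3710 in experiment 1 and 4216 and 2482 in experiment 2. In lung it was 1123 and 1056 in experiment 1 and 2474 and 2244 in experiment 2. The lowest tip array thus lay just above the highest lung array, and the lung RNA of experiment 1 was the sample that stood lowest.
The mean was 3360 ± 14.9 in tips and 1724 ± 898 in lung (SD, n = 2 each), a ratio of 1.95. On the scale of log2(signal + offset), the difference was 0.97 ± 0.39 (SE), with a 95% interval from 0.09 to 1.84 (limma adjusted p = 0.0882). It was 1.50 in experiment 1 and 0.44 in experiment 2, and 0.62 relative to the median of all probe sets. The direction was the same in 4 of 4 array pairs, but the size varied more between litters than between arrays, which gave 1.03 for arrays of number 1 and 0.91 for those of number 2.

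The other ligands could not be compared at this sensitivity. Wnt4, a ligand of mesenchyme and mesothelium in the mouse lung, gave 123, 196, 145 and 332 on the tip arrays, against 32.2, 79.8, 44.5 and 71.5 on the lung arrays. Each tip value exceeded each lung value, yet all 8 lay under their array's background, so no fold is given. Over all 12422 probe sets, 22.1% had every tip array above every lung array and 11.2% every tip array under every lung array, whether dim or bright. Among the 10 member probe sets these numbers were 3 (Wnt4, Wnt11 and the second of Lef1) and 1 (Ctnnb1). The background was itself higher on most tip arrays, and its part in the order of such dim values was not tested.
Wnt5a, a ligand of the distal mesenchyme, gave 75.6, 56.6, 49.6 and 70.7 on tip arrays, against 53.7, 20.8, 69.6 and 50.2 on lung arrays. The groups overlapped, and the probe set was among the dimmest of the array. Wnt7b, the ligand of the distal epithelium, gave 415, 295, 833 and 336 on tip arrays, against 183, 251, 316 and 188 on lung arrays. It rose above background on 1 tip array, the first of experiment 2, and on no lung array. The groups overlapped between 295 and 316, and the untested log2 differences were 0.46 in experiment 1 and 0.80 in experiment 2.

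The secreted inhibitors were as dim. Sfrp1, which binds Wnt ligands outside the cell, gave 349, 257, 84.1 and 402 on tip arrays, against 422, 380, 305 and 79.2 on lung arrays. The groups overlapped over nearly their whole range, and 1 lung array was above background. The 2 experiments gave opposite signs, with untested log2 differences of -0.29 and 0.15. Frzb, a secreted Frizzled-related protein first known from cartilage, gave 138, 148, 89.5 and 126 on tip arrays, against 65.8, 57.2, 89.5 and 95.2 on lung arrays. All of these lay under background.

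Ctnnb1 gave the clearest result of the set. Its signal in tips was 5824 and 6045 in experiment 1 and 15841 and 13454 in experiment 2. In lung it was 53642 and 57663 in experiment 1 and 62119 and 60331 in experiment 2. The highest tip array lay far under the lowest lung array, and the 2 arrays of each RNA lay close together.
The mean was 10291 ± 6161 in tips and 58439 ± 3940 in lung (SD, n = 2 each). The log2 difference was -2.63 ± 0.44, with a 95% interval from -3.61 to -1.64 (limma adjusted p = 0.00401). Of the 7453 probe sets tested, 163 had a more negative difference. Relative to the median of all probe sets the difference was -2.98.
The tips of the 2 experiments differed from each other more than the lungs did, and the log2 difference of experiment 1 was -3.20, against -2.06 for experiment 2. It was -2.57 over arrays of number 1 and -2.69 over arrays of number 2. In bulk RNA, fewer cells of a type and less RNA per cell cannot be told apart. Ctnnb1 passed the test in each of 28 other ways of processing the arrays, with differences from -3.27 to -1.82 and adjusted p (limma) from 1.83e-05 to 0.0375.

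**Figure D2:**
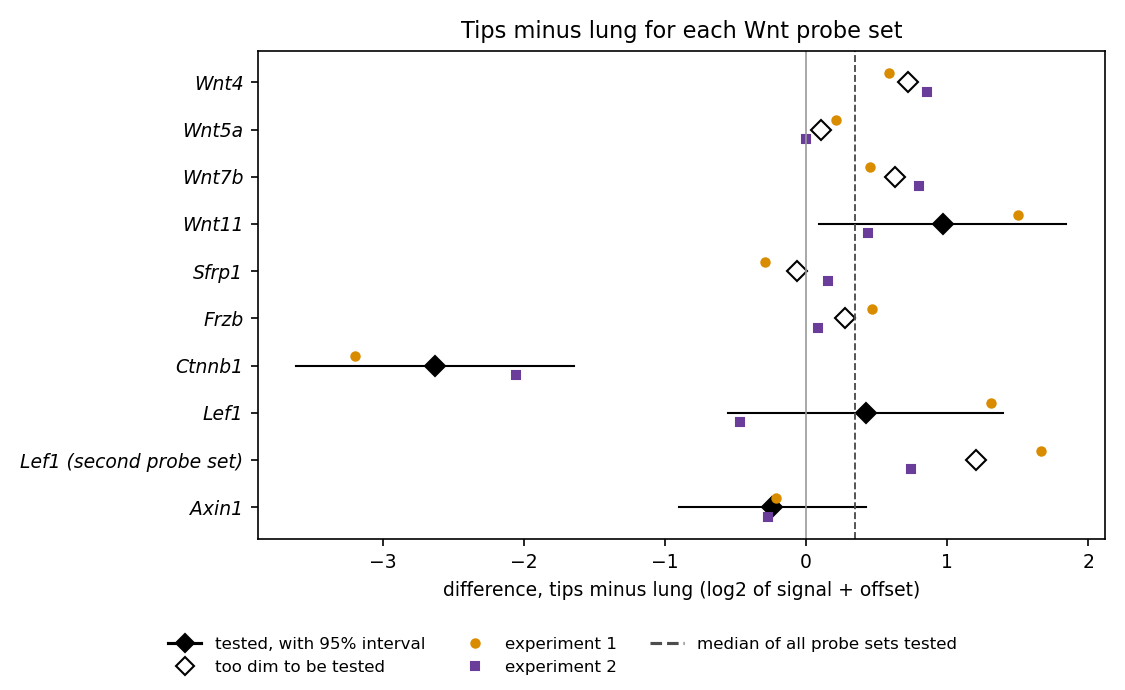
Log2 difference of tips minus lung for each member probe set, with the mean (diamond, filled where tested), its 95% interval and the values of experiment 1 (circle) and experiment 2 (square). The dashed line marks 0.35, the median of all probe sets tested: Ctnnb1 lies at -2.63 with both experiments to the left of -2, and the intervals of Lef1 and Axin1 span 0.

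Lef1, the DNA-binding partner of beta-catenin, varied between arrays of one RNA. The first probe set gave 3997, 2893, 818 and 3232 on tip arrays, against 2156, 738, 2510 and 2202 on lung arrays. One tip array and one lung array fell well below the rest of their group, and the groups overlapped.
The mean was 2735 ± 1004 in tips and 1902 ± 643 in lung (SD, n = 2 each). The log2 difference was 0.42 ± 0.43, with a 95% interval from -0.55 to 1.39 (limma adjusted p = 0.472). Relative to the median of all probe sets it was 0.07. The sign was not stable: experiment 1 gave 1.31 and experiment 2 gave -0.47, with -0.31 over arrays of number 1 and 1.15 over arrays of number 2.
The second Lef1 probe set, drawn from the same transcript entry, gave 518, 458, 462 and 140 on tip arrays, against 49.6, 51.6, 74.5 and 131 on lung arrays. It lay under background on all arrays and was not tested. Its tip values all exceeded its lung values, unlike those of the first probe set, so that the 2 probe sets do not settle a direction for Lef1.

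Axin1, the scaffold of the complex that marks beta-catenin for destruction, was the steadiest member. It gave 3452, 3163, 3100 and 4266 on tip arrays, against 4073, 3628, 3721 and 5245 on lung arrays. Each tip array lay below the lung array of the same experiment and number, by a small margin, and the groups overlapped.
The mean was 3495 ± 266 in tips and 4167 ± 447 in lung (SD, n = 2 each). The log2 difference was -0.24 ± 0.29, with a 95% interval from -0.90 to 0.42 (limma adjusted p = 0.554). It was -0.21 in experiment 1 and -0.27 in experiment 2, and -0.59 relative to the median of all probe sets. The 95% interval does not overlap that of Ctnnb1.

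The scale chosen for the arrays moves these values, since tip arrays had a higher median signal (787 to 924) than lung arrays (501 to 572) after the authors' scaling to a common trimmed mean. Ctnnb1 gave -2.11 after quantile normalization (limma adjusted p = 0.0137), -3.17 after median centring (0.00258) and -1.82 after cyclic loess (0.00550). Wnt11 gave 0.80, 0.43 and 0.84 under the same scalings, and Axin1 -0.17, -0.78 and -0.09. Lef1 gave 0.28 and 0.23 after quantile normalization and cyclic loess, and -0.12 after median centring, where its sign turned. The median of all probe sets moved to 0.03, -0.19 and 0.05, so Ctnnb1 stayed between -2.98 and -1.87 relative to it.

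**Figure D3:**
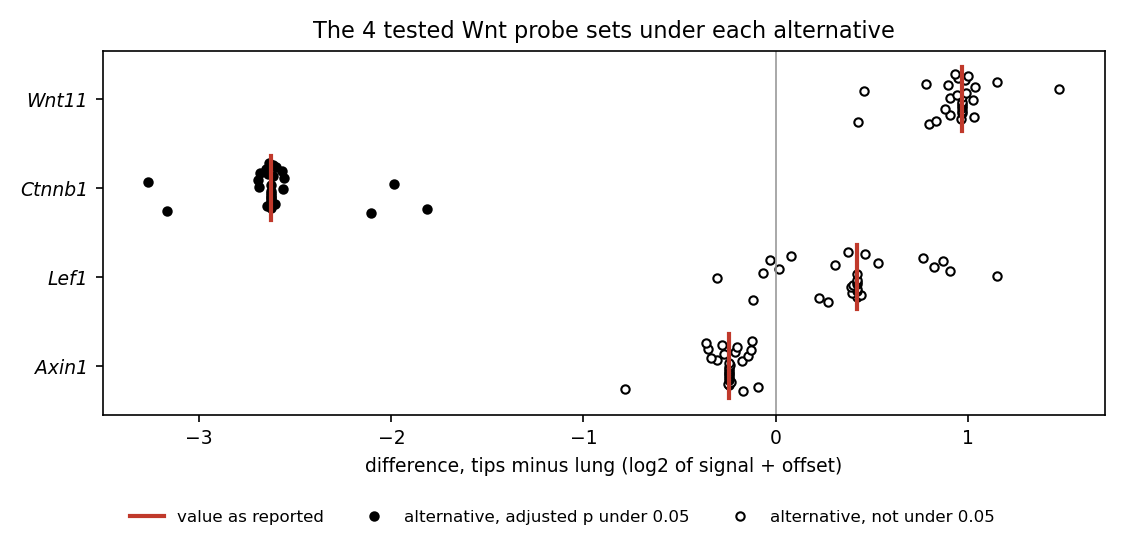
Log2 difference of tips minus lung of the 4 tested member probe sets, as reported (red line) and under 28 alternatives each (circles, filled where the adjusted p was under 0.05). Ctnnb1 is filled throughout between -3.27 and -1.82, Lef1 lies on both sides of 0, and Wnt11 spans 0.43 to 1.48 without a filled point except 1, with the RNA as a random block.

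The rest of the pathway was read on a list of 143 further genes, sorted by role, of which 101 had a probe set and 70 were tested on their brightest one. Of the 70, 8 rose and 9 fell in tips, which is 24.3%. Of all 5642 genes tested this way, 14.6% rose and 15.1% fell, 29.7% in all. The median log2 difference was 0.21 for the pathway genes and 0.31 for all genes. With the experiment as a block, 12 of the 70 were higher and 12 lower, or 34.3%, and the share over all genes was also 34.3%.

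Ligands and receptors gave 1 call each, both higher. These were 11.1% and 12.5% of those tested, against 14.6% called higher over all genes. Of 9 tested genes for other ligands and their secretion, Wnt3 rose, and the median difference was 0.83. Wnt3, a ligand of the canonical branch, gave 719, 1135, 1010 and 1116 on tip arrays, against 117, 170, 91.9 and 568 on lung arrays. That was 1.70 ± 0.47 on the log2 scale (limma adjusted p = 0.0291). Only 2 tip arrays and 1 lung array were above background, however, and the lung values alone were too dim for a test. With all values under the second-highest background (792) raised to it, an alternative chosen after seeing the data, the difference was 0.29 (limma adjusted p = 0.218).
Of 8 receptors, Fzd2 rose, and the median was 0.53. At an unadjusted p under 0.05, 2 ligand genes and 2 receptors were higher, and 2 ligand genes and 0 receptors lower. Fzd2, a Frizzled receptor, gave 2266, 4345, 1739 and 2042 on tip arrays, against 923, 66.7, 218 and 242 on lung arrays. Its lung values alone were too dim for a test. The log2 difference was 2.60 ± 0.42 (limma adjusted p = 0.00364), with all 4 tip arrays and 1 lung array above background. It was 1.41 with the floor at 792 (limma adjusted p = 0.0323) and 0.89 with a floor at the highest background of 1244 (limma adjusted p = 0.109). Of 3 other secreted inhibitors tested, 0 were called by limma, 0 had an unadjusted p under 0.05, and the median was 0.06.

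Cytoplasmic components of the destruction complex and its regulators moved both ways. Of 14 tested, 4 rose and 3 fell, with a median of 0.65. That is 50%, against 29.7% called over all genes, on a small list. At an unadjusted p under 0.05 (limma), 7 were higher and 3 lower. The casein kinase genes split. Csnk1a1, whose product casein kinase 1 alpha primes beta-catenin for destruction, gave 9610, 6096, 10825 and 10651 on tip arrays, against 45446, 58135, 38339 and 49828 on lung arrays.
Its log2 difference was -2.37 ± 0.33 (limma adjusted p = 0.00211), and a further probe set gave -2.00 ± 0.35 (limma adjusted p = 0.00499). Csnk1a1 passed in all 28 alternatives. Csnk1e, the casein kinase 1 epsilon gene, gave 2140, 2029, 1638 and 899 on tip arrays (limma adjusted p = 0.00353). Its lung values of 32.3 to 90.4 lay under background on all 4 arrays. Against the background of the lung arrays it was at least 3.09-fold higher in tips. It was bright enough to be tested through the tips alone, and the difference was 0.89 with the floor at 792 (limma adjusted p = 0.0774) and 0.43 with that at 1244 (limma adjusted p = 0.202).
Csnk1g2, of the gamma class of casein kinase 1, rose by 1.58 ± 0.39 (limma adjusted p = 0.0183), with all 4 tip arrays and 2 lung arrays above background. It was 0.85 with the floor at 792 (limma adjusted p = 0.0379) and 0.28 with that at 1244 (limma adjusted p = 0.115). The phosphatase 2A subunits also split: the scaffold gene Ppp2r1a rose by 1.46 ± 0.38 (limma adjusted p = 0.0213), and the catalytic gene Ppp2ca gave -2.08 ± 0.42 (limma adjusted p = 0.00817). Of the Ppp2ca values, 1 tip array and all 4 lung arrays were above background, and the difference was -1.54 with the floor at 792 (limma adjusted p = 0.0292) and -1.07 with that at 1244 (limma adjusted p = 0.0864). Fbxw11, an F-box subunit of the ligase that takes up phosphorylated beta-catenin, gave -1.67 ± 0.44 (limma adjusted p = 0.0224), and a second probe set of it gave 0.75 (limma adjusted p = 0.278). The remaining call, outside the rule for naming and chosen after its values were seen, was the casein kinase 2 gene Csnk2a2 at 1.56 ± 0.40.

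In the nucleus, 2 of 11 tested partners of beta-catenin rose (18.2%, near the 14.6% of all genes) and 0 fell, with a median of 0.16. At an unadjusted p under 0.05 (limma), 3 were higher and 1 lower. The 2 that rose encode proteins known to hold beta-catenin activity down, but the list is too small to read a pattern from. Chd8, a chromatin remodeller that binds beta-catenin, gave 3808, 4422, 4551 and 5140 on tip arrays, against 624, 1469, 1424 and 1559 on lung arrays. The log2 difference was 1.77 ± 0.34 (limma adjusted p = 0.00666). Ctnnbip1, whose product ICAT keeps beta-catenin from TCF factors, averaged 3539 ± 23.3 in tips and 1445 ± 147 in lung (SD, n = 2 each). It thus rose by 1.20 ± 0.31 on the log2 scale (limma adjusted p = 0.0214).

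Genes known from other tissues as Wnt targets gave 0 rises and 2 falls among 10 tested, with a median of -0.27. The falls made up 20%, near the 15.1% called lower over all genes, and the list is small. At an unadjusted p under 0.05 (limma), 0 were higher and 3 lower. Id2, an inhibitor of basic helix-loop-helix factors, gave 3502, 4746, 7268 and 4209 on tip arrays, against 29938, 26352, 21594 and 20869 on lung arrays. The groups lay far apart, the difference was -2.33 ± 0.32 (limma adjusted p = 0.00190), and Id2 passed in all 28 alternatives. Mycn, a growth-promoting transcription factor of the distal lung epithelium, averaged 819 ± 401 in tips and 2711 ± 664 in lung (SD, n = 2 each), or -1.61 ± 0.41 on the log2 scale (limma adjusted p = 0.0199). With 2 tip arrays above background, it was -1.004 with the floor at 1244 (limma adjusted p = 0.0699). A dim second probe set of Mycn ran the other way, at 1.32, and was not tested. Axin2, the target most often used as a readout of beta-catenin, was too dim to be tested: 0 tip arrays and 1 lung array lay above background.

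Junction genes, listed here with beta-catenin whether or not they bind it directly, were lower where they were called. Of 15 tested, 0 rose and 4 fell, with a median of -0.13. At an unadjusted p under 0.05 (limma), 0 were higher and 5 lower. Cdh11, the cadherin of mesenchyme, averaged 723 ± 262 in tips and 2940 ± 486 in lung (SD, n = 2 each), or -2.06 ± 0.40 on the log2 scale (limma adjusted p = 0.00728). With 2 tip arrays above background, it was -1.12 with the floor at 1244 (limma adjusted p = 0.0488). The delta-catenin gene Ctnnd2 gave -1.42 ± 0.35 (limma adjusted p = 0.0183).
The plakophilin gene Pkp2 gave -1.14 ± 0.29 (limma adjusted p = 0.0197), while another probe set of it gave 0.01 (limma adjusted p = 0.985) and the last one, too dim to be tested, gave 1.42. The call outside the naming rule was Pkp4, at -1.33 ± 0.43, picked after its values were seen. The main cadherins of epithelium and endothelium, Cdh1 and Cdh5, gave -0.13 (limma adjusted p = 0.763) and 0.48 (limma adjusted p = 0.231). These lists are small, and 15.1% of all genes were called lower.

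**Figure D4:**
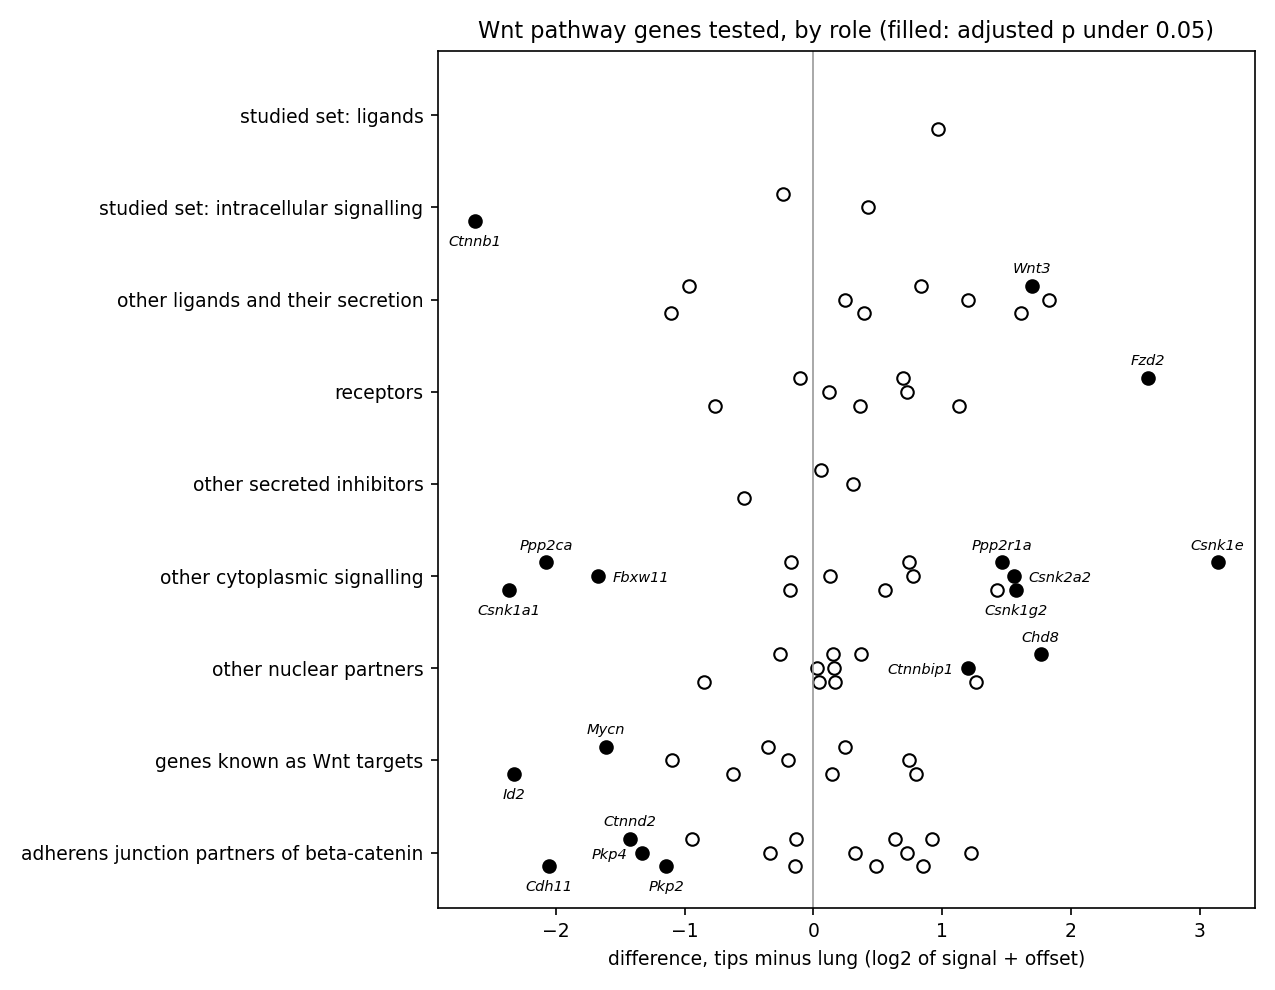
Log2 difference of tips minus lung for each tested gene of the pathway on its brightest probe set, one row per role, filled and named where the adjusted p was under 0.05. The 4 called junction genes and the 2 called target genes lie left of 0, the 2 called nuclear partners right of it, and the cytoplasmic genes fall on both sides.

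Many of these pathway calls were lost with 1 lung RNA, as were calls over the whole array, of which 93 higher and 331 lower were left without the lung RNA of experiment 1. Without the lung RNA of experiment 1, 11 of the 15 genes named by rule did not pass: Wnt3, Csnk1g2, Ppp2r1a, Ppp2ca, Fbxw11, Chd8, Ctnnbip1, Mycn, Cdh11, Ctnnd2 and Pkp2. Without that of experiment 2, 10 did not pass, those genes other than Chd8. In these fits the lone lung RNA is assumed to vary like the tips. The differences themselves moved less: without the lung RNA of experiment 1 or 2, Csnk1g2 gave 1.56 or 1.60, Ctnnbip1 1.11 or 1.30, Chd8 1.49 or 2.04, Ppp2ca -1.71 or -2.44 and Ppp2r1a 1.86 or 1.07. Ctnnb1, Csnk1a1 and Id2 passed in both. Fzd2 and Csnk1e did too, but their lung values alone were too dim for a test. Neither of these passed with the floor at 1244. The scaling mattered as well. Wnt3 and Csnk1g2 did not pass after quantile normalization, median centring or cyclic loess. Ppp2r1a did not pass under quantile normalization or median centring, Pkp2 under quantile normalization or cyclic loess, Fbxw11 under quantile normalization, and Ctnnbip1 under median centring.

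The tissue was checked against marker lists. Over all genes tested, 14.6% were called higher and 15.1% lower, and the marker lists are small. Each summed signal covers every marker of its list with a probe set, tested or not. Eln, Eng, Sftpc, Scgb1a1 and Lyz2 weigh most in the sums of the muscle, endothelial, type II, airway and leukocyte lists. Of the myofibroblast and smooth muscle markers 4 of 8 rose and 0 fell by limma (80077 to 198168 in tips, 59397 to 116922 in lung). Pdgfra was lower at an unadjusted p under 0.05, at -0.83 (limma adjusted p = 0.0861). Acta2 gave 0.09 (limma adjusted p = 0.890). Of 8 endothelial markers 4 rose and 2 fell (355652 to 369992 in tips, 102945 to 144892 in lung). Eng alone gave 282676 to 311856 in tips. The 2 that fell were Tek at -1.72 (limma adjusted p = 0.00436) and Emcn at -1.64 (limma adjusted p = 0.00591). Of 3 type II cell markers 1 rose (99039 to 115006 in tips, 22518 to 38019 in lung), and of 2 type I cell markers 1 fell (18200 to 28185 in tips, 39720 to 49989 in lung). The one that fell, Hopx, gave -1.76 (limma adjusted p = 0.00507), while Ager gave 0.89 (limma adjusted p = 0.0845), higher in 4 of 4 array pairs. Of 3 airway markers 2 rose (33328 to 84573 in tips, 14654 to 24906 in lung). Of 5 leukocyte markers 0 rose and 1 fell (21389 to 30516 in tips, 16770 to 20748 in lung). The one that fell, Ptprc, gave -1.95 (limma adjusted p = 0.00930). The mesothelial marker tested, Upk3b, gave -0.89 and did not pass (limma adjusted p = 0.0853, unadjusted p = 0.0322). The sums of its list were 1519 to 4095 in tips and 1854 to 2291 in lung. The 2 tested markers of red cells did not pass either (13400 to 76563 in tips, 6247 to 29320 in lung). Among all these markers, Cd3e of T cells was the one under background on all 8 arrays. The 3′/5′ signal ratio of Gapdh, a sign of RNA or amplification quality, was 4.18 to 12.8 on tip arrays and 1.95 to 5.49 on lung arrays. That of actin overlapped between the groups as well, at 23.0 to 139 on tip arrays and 38.8 to 104 on lung arrays. The actin ratio of 3′ to middle was lower on tip arrays, at 9.23 to 12.4, than on lung arrays, at 16.5 to 24.8. The part of cell makeup, RNA quality and amplification in the Ctnnb1 result was not tested.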

How the data were processed

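Expression was measured in 4 RNA samples, tips and whole lung of 2 experiments, each on 2 arrays. The deposited values are intensities that the authors obtained from MAS5 (per the submitters' processing notes, with no version). Sample titles set the groups, since the tip arrays carry a description that speaks of whole lung. Amplification is stated for both tissues in the series' design text. The labels of all tip arrays state it too, but those of most lung arrays do not.

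Each array was scaled to a common mean of 1501, taken without the outer 2% of probe sets at each end. After adding an offset of 150 (10% of it), values were put on the log2 scale, which understates the differences of dim genes. The 66 control probe sets and those under the 40th percentile of the mean were left out. Arrays of an RNA were averaged. The fit of tips against lung used limma 3.58.1 under R 4.3.3 (lmFit, eBayes with an intensity trend, Benjamini-Hochberg) on 2 residual and 7.05 prior degrees of freedom. The number of arrays limits the precision, and the median SE was 0.40. The procedure was tested on simulated data.

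Of 12488 probe sets, 10855 had 1 gene symbol, 396 several and 1237 none, and 10839 symbols were updated through the RefSeq table of GRCm38.p6. Members and lists were chosen with earlier results of these data known. All members were described. Of each further list up to 3 genes per direction were named by smallest p on the brightest probe set. Axin2, Nkd1, Tcf7 and Lgr5 were on 2 lists and counted once in the total. Where all arrays of the dimmer group lay under background, a lower limit of the fold was formed with each of those arrays raised to its own background.

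The experiment, shared by tips and lung in the design text, pairs the RNA samples. Their deviations from the group means correlated at 0.0452 across probe sets. The fit without this block was used, and the blocked fit was an alternative beside other scalings, offsets, filters, floors, single array sets and left-out arrays or RNAs.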

Additional observations from a re-analysis of the deposited data

Results flagged for a closer look

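Of 50 groups of 4 arrays examined on the log2 scale, 3 held an array whose gap to the nearest other one took up more of the group's range than Dixon's 95% limit for 4 values allows. Chance gives about 1 in 20. For the first Lef1 probe set, array 2 of the lung RNA of experiment 1 gave 738, while the other lung arrays gave 2156 to 2510. For the second Lef1 probe set, array 2 of the tips of experiment 2 gave 140, while the other tip arrays gave 458 to 518. For Chd8, array 1 of the lung RNA of experiment 1 gave 624, while the other lung arrays gave 1424 to 1559. Without that array the Chd8 call remained.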

How the results depend on the processing

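The counts depended on the scale, the floor and the RNA samples used. Over all probe sets, 1084 were higher and 1022 lower in tips as reported. The number higher was 614 after quantile normalization, 271 after median centring, 255 with all values under the highest background (1244) raised to it, 533 on arrays of number 1 and 686 on arrays of number 2, and 93 to 1838 when an array or RNA was left out. The number lower was 1512 after median centring, 571 with that floor and 331 to 1463 with an array or RNA left out. With the experiment as a replicate block, 1295 were higher and 1157 lower, and 2098 calls were shared with the fit as reported. The block changed no call of a member.

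Among members, Ctnnb1 passed in all 28 alternatives, and the count of members called lower stayed at 1. The count called higher became 1 only with the RNA as a random block over arrays, where Wnt11 passed. It ranged from 0.46 to 1.48 with an array or RNA left out. The sign of Lef1 turned to -0.12 after median centring and to -0.31 on arrays of number 1, and ran from -0.064 to 0.91 with an array or RNA left out. It was -0.064 without the tips of experiment 1 and -0.029 without array 2 of the tips of experiment 2.

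Of the other pathway genes, 8 were higher as reported, against 4 after quantile normalization, 3 after median centring, 2 with the highest floor, 2 on arrays of number 1 and 3 to 15 with an array or RNA left out. The 9 lower became 17 after median centring, 4 with that floor, 4 on arrays of number 1 and 2 to 13 with an array or RNA left out. Wnt3 was bright enough to be tested in 22 of the 28 alternatives and did not pass in 9 of these. Fzd2 did not pass with the highest floor or on arrays of number 1. Csnk1e was tested in 19 of the 28. It did not pass with that floor or with one at the second-highest background (792), which was chosen after seeing the data. It was too dim to be tested after quantile normalization, with an offset of 1%, on arrays of number 2, and with any tip array or tip RNA left out. Csnk1g2, Ppp2r1a, Fbxw11 and Mycn did not pass on arrays of number 1 or with the highest floor. Ctnnbip1, Cdh11 and Pkp2 did not pass on arrays of number 1, and Ppp2ca and Ctnnd2 did not with the highest floor. Fbxw11 also did not pass with the floor at 792. The causes were not tested.

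Limits are the 2 RNA samples per group, a background near or above 6 of the 10 member probe sets, and probes that cannot tell transcript forms apart.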
